A study of Danio rerio with 12 samples.

Results

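Zebrafish (Danio rerio) embryos without a working anp32e gene were set against wild-type embryos of the shield stage (6 hpf, hours post fertilization) across all 22737 genes of the deposited table. The comparison used 4 of the 12 libraries of the series, the 2 of each group, chosen by their labels. Null embryos were of strain NHGRI and carried the Anp32e Null mutation. Wild-type embryos were of strain Tu. Genotype and strain therefore cannot be told apart in this comparison. Maternal null and paternal null embryos of the same stage, both labelled Tu X NHGRI, had 2 libraries each and serve here for their levels and for the fit. Total RNA was made into stranded libraries after removal of ribosomal RNA. The labels do not say how many embryos or clutches went into a library, what the lesion in anp32e is, or whether replicates came from separate clutches.

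Anp32e is a histone chaperone known for taking the variant H2A.Z out of chromatin, and the series asks how nucleosomes keep DNA methylation patterns between germline and embryo. At the shield stage the zebrafish gastrula consists of a thin outer epithelium (the enveloping layer), a deep layer that forms the germ layers, and the yolk syncytial layer, which feeds the embryo from the yolk. Maternal transcripts from the egg are still being cleared at this stage, while the embryo's own genome has become active.

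The libraries are called null 1, null 2, wild type 1 and wild type 2 by their labelled replicate number. Total counts, in M (1000000 reads), were 25.7 and 21.2 in null 1 and null 2, against 25.1 and 13.5 in wild type 1 and wild type 2. A chi-square test of the 2 libraries of a group, on genes reaching 20 counts in both together, gave 1.05 per degree of freedom for null, little above counting noise, and 95.2 for wild type. The null libraries, and likewise those of each cross (1.16 in maternal null and 1.17 in paternal null), were therefore summed and counted as 1 sample. The test against wild type rests on 5 shield samples, and only wild type 1 and wild type 2 give an estimate of spread (1 residual degree of freedom, common biological coefficient of variation 0.344). Replicates are those of the labels, so p-values measure the spread between these samples, which may be technical. On the main axis of a principal component analysis of the shield libraries, with 50.7% of their variance, the scores placed null at 94.9 and 95.6, maternal null at -16.2 in both, paternal null at -35.4 and -34.5, and wild type at -64.6 and -23.6. The wild-type pair was thus spread widely along an axis on which the null pair nearly coincided.

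Markers of the gastrula were present in all 4 libraries, including the mesoderm gene tbxta, the organizer genes gsc and chrd, the notochord gene noto and the ectoderm gene sox3. The notochord and tail factor tbxta had 490 and 484 CPM in null embryos, against 700 and 583 CPM in wild type (CPM is counts per 1000000 counts of the library total), and did not pass the test (adjusted p = 0.92). Markers of neighbouring stages were read as well. The early pluripotency factor nanog had 56.0 and 56.1 CPM in null embryos, against 324 and 97.2 CPM in wild type (log2 fold change -1.82 ± 0.65 SE, adjusted p = 0.083). The early factor sox19b went the other way, with 146 and 153 CPM in null embryos, against 81.9 and 92.6 CPM in wild type (adjusted p = 0.57). pou5f3, also of early stages, had 1602 and 1601 CPM in null embryos, against 1947 and 1507 CPM in wild type (adjusted p = 0.99). The muscle factor myod1 had 2.33 and 2.26 CPM in null embryos, against 0.0796 and 1.70 CPM in wild type (adjusted p = 0.37). The eye field gene rx3 had 1.32 and 0.802 CPM in null embryos, against 0.199 and 0.148 CPM in wild type (adjusted p = 0.10). Of the markers of later stages, tbx6 and hoxb1b passed the test as higher in null embryos (log2 fold change 3.24 and 4.12) and are described below. The wild-type libraries differed widely from each other at nanog, myod1 and hoxb1b, and what part these stage markers have in the results was not tested.

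The targeted transcript was nearly lost. anp32e (ENSDARG00000054804, chromosome 19 from 42758985 to 42772378 in the table's Zv10 coordinates) had 81.2 and 80.5 CPM in null embryos, against 2285 and 3172 CPM in wild type. Both null libraries lay far below both wild-type libraries, and the transcript fell by 5.07 ± 0.98 on the log2 scale (SE; edgeR quasi-likelihood test, Benjamini-Hochberg adjusted p = 3.9e-05). Maternal null embryos had 1220 CPM and paternal null embryos 1416 CPM, each pooled over 2 libraries. The related chaperone genes did not pass the test. anp32a had 854 and 860 CPM in null embryos, against 621 and 853 CPM in wild type (adjusted p = 0.96), and anp32b had 1382 and 1397 CPM in null embryos, against 1238 and 1573 CPM (adjusted p = 1.0).

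Of 21167 genes tested across the whole table, 1052 passed an adjusted p of 0.05, which is 4.97% of those tested. Of these, 472 rose in null embryos (2.23%) and 580 fell (2.74%). A further 1570 genes were too low to test. In edgeR 3332 of the 21167 had an unadjusted p under 0.05, a share to set beside such counts in the lists below. Without wild type 1 or wild type 2, when the spread is taken from other groups, 10.5% or 15.9% of all genes passed as higher and 9.05% or 18.2% as lower. The median level of genes that fell was 0.256 CPM in null embryos and 3.80 CPM in wild type. For genes that rose it was 8.06 CPM in null embryos and 1.40 CPM in wild type, and for all tested 5.12 CPM in null embryos and 5.54 CPM in wild type. The median change was 2.60 on the log2 scale among genes that rose, -3.48 among genes that fell and -0.04 among all tested. More than 8-fold changes were found for 149 genes that rose and 368 that fell. No read at all was counted in the null libraries for 121 genes that fell, and none in the wild-type libraries for 10 that rose. Among well-read genes the balance was the other way: 161 of those that rose had at least 20 CPM in null embryos, and 94 of those that fell had at least 20 CPM in wild type. The null and wild-type values did not overlap for 472 of 472 genes that rose and 563 of 580 that fell, beside 62.7% of all genes tested. The genomic span of a gene had a median of 14.0 kb among those that rose, 12.6 kb among those that fell and 15.9 kb among all tested.

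**Figure D1:**
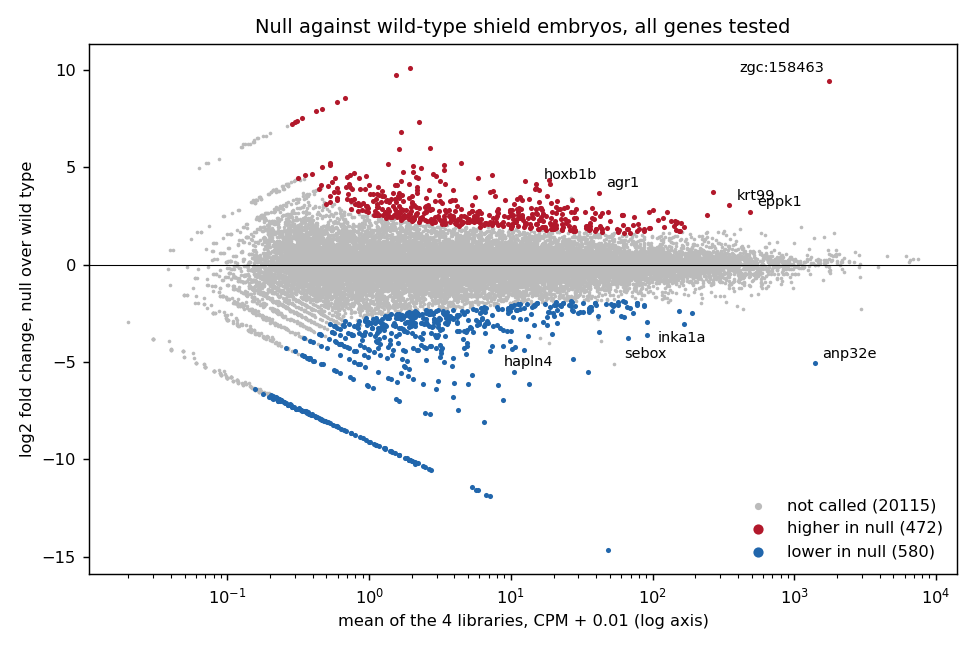
Log2 fold change of null over wild-type embryos against the mean level of the 4 libraries (CPM + 0.01, log axis) for the 21167 genes tested, each point a gene. The 472 genes that rose (red) and the 580 that fell (blue) flank the 20115 that did not pass (grey); the lowest diagonal of points holds genes with no read in null embryos, whose fitted fold change depends on the prior count.

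Wild type 2 was lower than wild type 1 at genes that fell. The median log2 ratio of wild type 2 over wild type 1 was -0.68 at genes that fell, 0.00 at genes that rose and -0.25 at all genes tested (on log2 of CPM + 0.5). On the same scale the crosses lay between null and wild type. Over genes that rose, the median difference from wild type was 1.96 in null, 0.54 in maternal null and 0.70 in paternal null. Over genes that fell it was -2.08 in null, -0.77 in maternal null and -0.45 in paternal null. Over all genes tested it was -0.05, -0.04 and -0.04 in the same order. The crosses are set against the same wild-type libraries as the null embryos. The genes that rose or fell were also picked by the difference of null from wild type. These medians are therefore not independent of each other.

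The symbol-bearing genes with at least 20 CPM in every null library and the largest rise included regulators, channels and outer epithelial genes. meis2b, a TALE homeobox partner of Hox proteins (chromosome 20 from 10111868 to 10133202), had 23.9 and 23.7 CPM in null embryos, against 0.159 and 2.37 CPM in wild type. It rose by 4.29 ± 0.67 (log2, SE, adjusted p = 1.4e-07), and by 3.27 without wild type 1 and 7.37 without wild type 2. hoxb1b, a Hox gene of the early hindbrain (chromosome 12 from 27049779 to 27051474), had 28.7 and 28.2 CPM in null embryos, against 0.239 and 3.11 CPM in wild type. It rose by 4.12 ± 0.66 (adjusted p = 2.9e-07; 3.13 without wild type 1 and 7.05 without wild type 2), a call lost in DESeq2 (adjusted p = 0.47). For both genes the wild-type libraries were far apart, yet both null values lay above both of them. Neither gene stood near its null level in the crosses: meis2b had 0.689 CPM in maternal null and 0.554 CPM in paternal null, and hoxb1b 0.737 and 1.04 CPM in maternal and paternal null.

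cacna1ha, a subunit gene of the T-type calcium channel, had 34.5 and 36.2 CPM in null embryos, against 3.14 and 0.370 CPM in wild type. It rose by 4.36 ± 0.62 (adjusted p = 2.8e-09), and by 6.50 without wild type 1 and 3.66 without wild type 2. Its crosses stood between the groups, at 14.4 CPM in maternal null and 13.4 CPM in paternal null. vsig8a, which encodes an immunoglobulin-domain membrane protein, had 27.1 and 28.1 CPM in null embryos, against 2.19 and 1.70 CPM in wild type (3.86 ± 0.62, adjusted p = 1.6e-07). Here the maternal null embryos, at 21.6 CPM, were near the null level and the paternal null embryos, at 5.08 CPM, near wild type. s100s, of the S100 family of calcium-binding proteins, rose by 3.81 (29.3 and 29.8 CPM in null embryos, against 1.47 and 2.81 CPM in wild type; 4.50 without wild type 2). The GTPase gene rasd2a rose by 3.54 (4.51 without wild type 2), a traf4 copy (ENSDARG00000003963, a signalling adaptor) by 3.48 and an atp6v1b2 copy (ENSDARG00000043465, a subunit of the proton pump) by 3.39. si:ch73-65n21.2 and si:ch73-65n21.1, which lie next to each other on chromosome 2, rose by 4.14 and 3.95 and may share reads (5.38 for si:ch73-65n21.2 without wild type 1).

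The greatest rise on this list, 9.42, was that of zgc:158463 (chromosome 5 from 825788 to 827000), with 3507 and 3556 CPM in null embryos, against 11.1 and 0 CPM in wild type. It passed in the fit of all shield samples (SE 1.58, adjusted p = 0.0036) but not in DESeq2 (adjusted p = 0.26) or with scaling by library totals (adjusted p = 0.69). Its call was also lost when either wild-type library was left out. In those fits the spread comes from the pair labelled null sperm, which had 2.24 and 9.65 CPM. The change was 8.49 without wild type 2, and without wild type 1 a value of 20.25 that depends on the prior count. The maternal null embryos had 3550 CPM and the paternal null embryos 10.2 CPM, so among shield embryos the high level was seen in null and maternal null. It was also seen, at 3592 and 3590 CPM, in the libraries of the sphere stage labelled as injected with Anp32e protein, whose labels give no strain. A like split of the shield groups was seen at ENSDARG00000103219 on chromosome 11, an identifier with no symbol, which had 493 and 499 CPM in null embryos, against 48.9 and 28.8 CPM in wild type (3.73 ± 0.61, adjusted p = 2.9e-07). It stood at 522 CPM in maternal null and 118 CPM in paternal null, and at 2.00 and 2.22 CPM in the injected sphere embryos. A metazoa_srp copy (ENSDARG00000089201), by its symbol an RNA of the signal recognition particle and one of several copies that may share reads, lies close to it and rose by 2.55, with 493 CPM in maternal null and 185 CPM in paternal null.

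**Figure D2:**
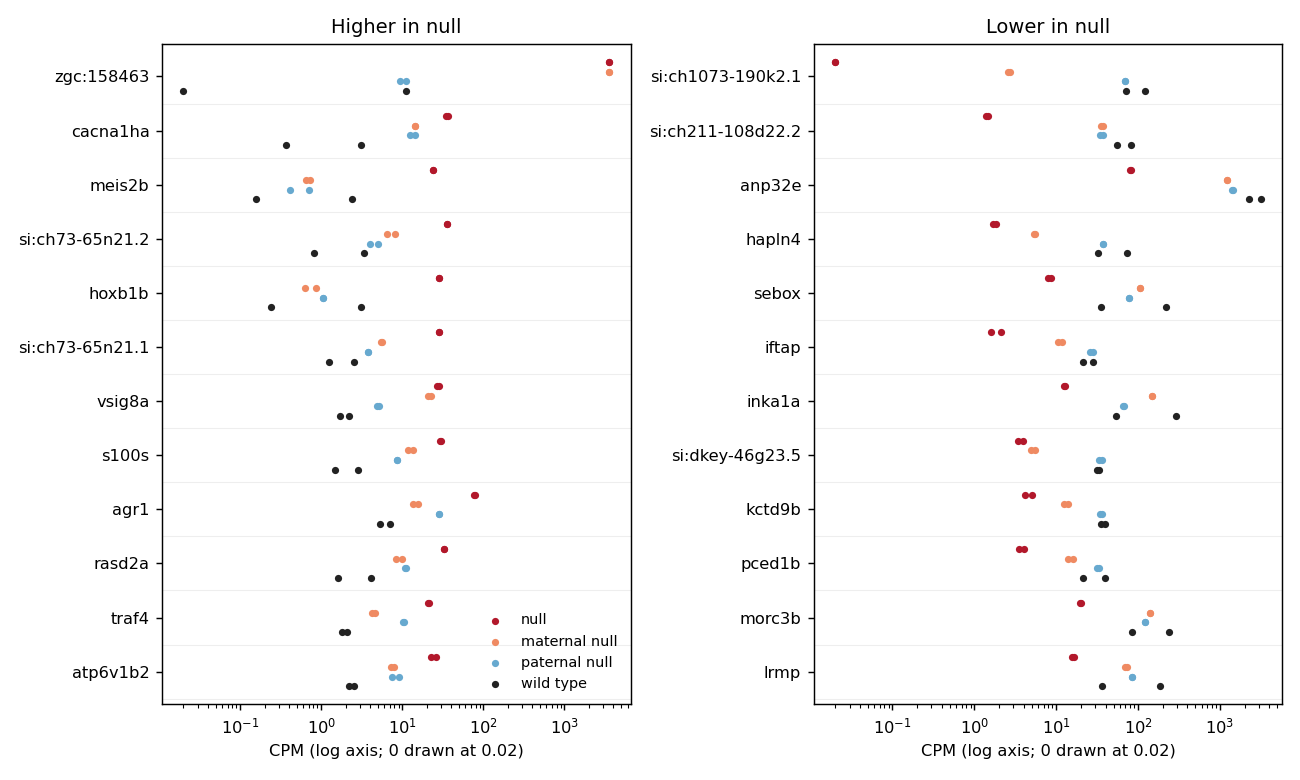
Levels in CPM (log axis, 0 drawn at 0.02) of the 12 genes with the largest rise (left) and the 12 with the largest fall (right) among called genes with a symbol, at least 20 CPM in every library of the higher group and groups that do not overlap. Each point is a library, with null, maternal null, paternal null and wild type running down within a gene; the null pair coincides nearly everywhere, while the wild-type pair of sebox spans 35.1 to 216 CPM.

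Among genes that fell, the largest changes were in transcripts almost absent from null embryos. si:ch1073-190k2.1 (chromosome 15 from 46098134 to 46100286) had no read in either null library, against 122 and 71.1 CPM in wild type. With a floor of 3 counts over both null libraries (0.064 CPM) it was at least 1624-fold lower. Maternal null embryos had 2.66 CPM and paternal null embryos 69.5 CPM, so here too maternal null lay nearer null and paternal null nearer wild type. Each cross counts as 1 sample, and the cause of the difference between the crosses was not tested. si:ch211-108d22.2 had 1.48 and 1.37 CPM in null embryos, against 81.3 and 55.5 CPM in wild type (-5.53 ± 0.76, adjusted p = 1.1e-09), with 36.4 CPM in maternal null and 35.6 CPM in paternal null. slc7a2, a transporter of cationic amino acids, fell by 6.11 ± 0.86, with 0.506 and 0.189 CPM in null embryos, against 34.6 and 18.3 CPM in wild type (adjusted p = 2.4e-09). Its crosses had 10.9 CPM in maternal null and 17.0 CPM in paternal null.

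inka1a, an inhibitor of the actin-regulating kinase Pak4, had 12.5 and 12.9 CPM in null embryos, against 286 and 54.0 CPM in wild type. It fell by 3.63 ± 0.69 (adjusted p = 3.0e-05), and by 2.15 without wild type 1 and 4.32 without wild type 2. morc3b, a gene of the MORC family of chromatin ATPases, had 20.2 and 19.7 CPM in null embryos, against 238 and 84.7 CPM in wild type, and fell by 2.93 ± 0.67 (adjusted p = 0.00096; by 2.15 without wild type 1). lrmp had 15.4 and 16.6 CPM in null embryos, against 185 and 35.7 CPM in wild type. It fell by 2.68 ± 0.64 (adjusted p = 0.0019), but by 1.23 without wild type 1 and 3.36 without wild type 2. Scaling by library totals lost the call of lrmp (adjusted p = 0.056). In each of these 3 genes wild type 1 was the high one and both null values lay below both wild-type values. iftap, kctd9b, pced1b and si:dkey-46g23.5 fell by 3.66, 3.01, 2.96 and 3.11, with both null values below both wild-type values in each. The wild-type values were 33.2 and 31.6 CPM for si:dkey-46g23.5 and 39.8 and 35.6 CPM for kctd9b, and further apart, at 39.2 and 21.2 CPM, for pced1b. Some transcripts with no descriptive name that fell were highest in paternal null embryos. ENSDARG00000103599 had 53.9 and 58.2 CPM in null embryos, against 376 and 270 CPM in wild type, with 133 CPM in maternal null and 969 CPM in paternal null. si:dkey-192l18.10 had 47.5 and 50.4 CPM in null embryos, against 276 and 244 CPM in wild type, with 71.6 CPM in maternal null and 384 CPM in paternal null.

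For the enveloping layer, the outer epithelium that spreads over the yolk, 37 genes were tested. Of these 11 rose in null embryos (29.7%, beside 2.23% of all genes tested), none fell, 26 did not pass, and the median was 1.41, beside -0.04 over all genes. Lists and their members, here and below, were chosen with earlier results of these data known. Their shares are therefore descriptions and no independent support. Without wild type 1 or wild type 2 the median was 2.01 or 1.12, and DESeq2 on the same samples called 8 higher and 0 lower, beside 0.967% higher and 1.87% lower over all genes it tested (22 had an unadjusted p under 0.05 in edgeR). Over all genes tested, 3332 of 21167 had an unadjusted p under 0.05 in edgeR. In bulk samples, more cells of a type and more RNA per cell cannot be told apart. agr1, a disulfide isomerase gene of mucus-secreting epithelium, had 76.3 and 79.8 CPM in null embryos, against 6.96 and 5.32 CPM in wild type (3.70 ± 0.57, adjusted p = 4.1e-08). Both null values lay far above both wild-type values, and the crosses lay between, at 14.8 CPM in maternal null and 28.4 CPM in paternal null.

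Of 19 genes tested for keratins, the intermediate filament proteins of epithelia, 5 rose (26.3%, beside 2.23% of all genes tested) and none fell. The median was 1.56, and DESeq2 called 4 higher. All 5 are also on the enveloping layer list, so this is no separate count. krt99 had 619 and 620 CPM in null embryos, against 88.9 and 64.9 CPM in wild type (3.05 ± 0.60, adjusted p = 5.8e-05). krt17, cyt1l and cyt1, whose annotated spans overlap on chromosome 19 between 5439934 and 5464258 and which may share reads, rose by 2.71, 2.40 and 1.96. krt94 rose by 2.87 (3.23 and 2.69 CPM in null embryos, against 0.637 and 0.148 CPM in wild type; 4.25 without wild type 1). krt4, the classic marker of the layer, had 2863 and 2875 CPM in null embryos, against 1319 and 629 CPM in wild type, and did not pass (1.63 ± 0.72, adjusted p = 0.21). Pooled paternal null levels were above null for krt4 (3537 against 2868 CPM) and cyt1 (234 against 224 CPM), and near it for cyt1l (186 against 198 CPM). They were below null for krt99 (400 against 619 CPM), krt17 (141 against 218 CPM) and krt94 (1.26 against 2.98 CPM).

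Other structural genes of this epithelium rose with them. eppk1, which encodes epiplakin, a linker of keratin filaments, had 850 and 832 CPM in null embryos, against 188 and 81.9 CPM in wild type (2.71 ± 0.61, adjusted p = 0.00082; 3.30 without wild type 1). It was named for its difference in level and is not on the list. The annexin genes anxa1c, anxa1b and anxa1, whose products bind membranes in the presence of calcium, rose by 2.55, 2.54 and 2.12. dsc2l, a desmosomal cadherin, rose by 1.86 (151 and 148 CPM in null embryos, against 63.0 and 24.4 CPM in wild type; 2.56 without wild type 1), and icn, of the S100 family, by 1.94 (2.85 without wild type 1). The calls of krt94, dsc2l and icn were lost in DESeq2 (adjusted p = 0.13, 0.074 and 0.12). The reads of the whole list summed to 13229 and 13270 CPM in null embryos, 5883 and 5901 CPM in maternal null, 16114 and 16103 CPM in paternal null, and 6622 and 3124 CPM in wild type. By this sum the paternal null libraries were the highest and wild type 2 the lowest. The desmosomal plakophilin gene pkp1a was the 1 gene of 49 on the adhesion list that passed (2.04%, beside 2.74% of all genes tested that fell). It fell by 2.64 (0.350 and 0.519 CPM in null embryos, against 4.02 and 1.55 CPM in wild type), and by 1.92 without wild type 1. Its call was lost without null 1 (adjusted p = 0.079) and in DESeq2 (0.13).

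Some genes of the yolk syncytial layer and of lipid transport also rose. Of 32 tested on the yolk list, 10 rose (31.2%) and none fell, beside 2.23% and 2.74% of all genes tested. The median was 1.30 (1.44 and 1.34 without wild type 1 and wild type 2). DESeq2 called 6 higher and 0 lower, beside 0.967% higher and 1.87% lower over all genes it tested. In edgeR 16 had an unadjusted p under 0.05, beside 3332 of all 21167 genes tested. apoa1a, the main protein of high-density lipoprotein, had 68.2 and 67.7 CPM in null embryos, against 7.08 and 14.1 CPM in wild type (2.67 ± 0.55, adjusted p = 0.00017; 3.43 without wild type 2). tfa, which encodes the iron carrier transferrin, had 126 and 125 CPM in null embryos, against 18.4 and 28.5 CPM in wild type (2.42 ± 0.53, adjusted p = 0.00058). For both genes the null values lay above both wild-type values, and both crosses lay between: apoa1a had 21.2 CPM in maternal null and 24.7 CPM in paternal null, tfa 32.9 and 38.4 CPM in maternal and paternal null.

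Secreted proteins made up the rest of that list's rises. An afp4 copy (ENSDARG00000041490) rose by 2.49, the lipoprotein-associated phospholipase gene pla2g12b by 2.32 and the plasma protein gene fetub by 1.99 (2.69 without wild type 2; DESeq2 adjusted p = 0.067). Of 15 apolipoprotein genes tested, 6 rose (40.0%, beside 2.23% of all genes tested), none fell, and the median was 1.48. DESeq2 called 2 of the 6 and scaling by library totals 3; in DESeq2 the adjusted p was 0.082 for apobb.1, 0.21 for apob, 0.26 for apoa2 and 0.39 for apobb.2. The 6 were apoa1a, apoa1b (2.48), apoa2 (2.35) and the carriers of very low-density lipoprotein apobb.2 (2.46), apobb.1 (2.14) and apob (1.98), and all 6 are on the yolk list as well. The change without wild type 1 was 1.86 for apoa1b, 3.11 for apobb.2 and 1.35 for apob, and without wild type 2 it was 3.66 for apoa1b and 3.11 for apob. The call of apobb.2 was lost without null 1 (adjusted p = 0.12). apobb.1 had 58.1 and 59.5 CPM in null embryos, against 7.08 and 19.2 CPM in wild type, and rose by 1.55 without wild type 1 and 3.22 without wild type 2. The list's reads summed to 5649 and 5666 CPM in null embryos, 3900 CPM in both maternal null libraries, 3286 and 3302 CPM in paternal null, and 2480 and 3533 CPM in wild type. The regulators of the layer, mxtx1 and mxtx2, did not pass: mxtx1 had 21.5 and 22.5 CPM in null embryos, against 23.6 and 15.9 CPM in wild type, and mxtx2 had 1.32 and 1.27 CPM in null embryos, against 6.92 and 2.07 CPM in wild type.

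Several regulators of neural regions rose. Of 34 forebrain and anterior neural genes tested, 6 rose (17.6%, beside 2.23% of all genes tested) and none fell. Their median was 0.33, with 11 below 0. Of 28 midbrain and hindbrain genes 4 rose (14.3%) and none fell (median 0.77, with 9 below 0). In every list a gene could enter the test through its level in null embryos alone. Genes nearly silent in wild type can hardly be called lower. In lists with such genes, as here and for neural crest, the median and the lack of falls partly reflect which genes were tested. The reads of the anterior list summed to 4046 and 4024 CPM in null embryos, against 4438 and 4169 CPM in wild type. Those of the midbrain and hindbrain list summed to 896 and 903 CPM in null embryos, against 312 and 593 CPM in wild type. fezf2, a zinc finger factor of the forebrain, had 4.94 and 5.80 CPM in null embryos, against 0.159 and 0.296 CPM in wild type (4.66 ± 0.82, adjusted p = 4.2e-06). The POU factor gene pou3f1 rose by 4.76 (4.67 and 3.11 CPM in null embryos, against 0 and 0.370 CPM in wild type; 3.35 without wild type 1, and without wild type 2 a value of 10.51 that depends on the prior count). otx1, of forebrain and midbrain, had 66.1 and 71.3 CPM in null embryos, against 14.6 and 24.0 CPM in wild type (1.82 ± 0.55, adjusted p = 0.024). gbx1, of the anterior hindbrain, had 55.5 and 57.0 CPM in null embryos, against 10 and 21.1 CPM in wild type (1.84 ± 0.55, adjusted p = 0.024; 2.66 without wild type 2). A foxb1 copy (ENSDARG00000053650) rose by 3.03, zic1 by 2.49 and the eye and forebrain gene pax6 by 2.26, while in the hindbrain list phox2a rose by 2.57 and neurog1, a proneural gene, by 3.07. When wild type 1 was left out the log2 change was 1.86 for zic1, 1.90 for phox2a and 1.90 for neurog1, and without wild type 2 it was 3.47, 3.48 and 5.26 in that order. The call of neurog1 was lost without null 1 (adjusted p = 0.077). All of these genes had lower pooled levels in both crosses than in null embryos. fezf2 had 0.143 CPM in maternal null and 0.310 CPM in paternal null, and otx1 15.5 and 18.4 CPM in maternal and paternal null. The pooled levels of pou3f1 and neurog1 in the crosses lay between null and wild type. pou3f1 had 1.21 CPM in maternal null and 0.909 CPM in paternal null, and neurog1 0.642 and 0.687 CPM in maternal and paternal null. DESeq2 called 2 of the anterior and 0 of the midbrain and hindbrain genes, with 13 and 6 at an unadjusted p under 0.05 in edgeR.

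**Figure D3:**
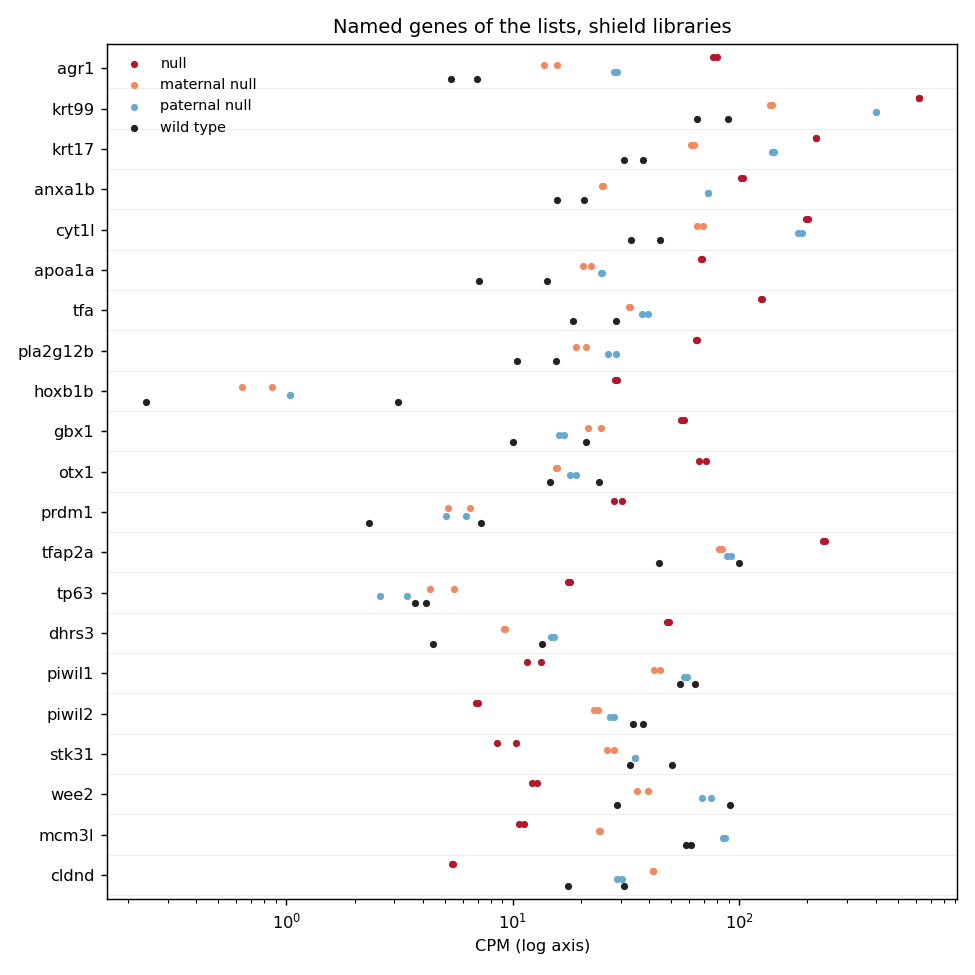
Levels in CPM (log axis) of 21 named genes that passed the test, each point a library, with null, maternal null, paternal null and wild type running down within a gene. Outer epithelial (agr1 to cyt1l), yolk layer (apoa1a to pla2g12b), neural and ectodermal (hoxb1b to dhrs3) genes are higher in null embryos, germ plasm and oocyte genes (piwil1 to cldnd) lower.

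The Hox clusters, which pattern the body axis from the hindbrain back, were close to silent in wild type. Of 31 Hox genes in the table, 18 were tested and 2 rose (11.1%, beside 2.23% of all genes tested), hoxb1b and hoxb8. None fell, and the median was 1.84. A gene could enter the test through its level in null embryos alone, and genes nearly silent in wild type can hardly be called lower. The median and the lack of falls therefore partly reflect which genes were tested. DESeq2 called 0 of them (7 had an unadjusted p under 0.05 in edgeR), with an adjusted p of 0.47 for hoxb1b and none given for hoxb8, and library totals kept hoxb1b but not hoxb8 (adjusted p = 0.009 and 0.069). hoxb8 had 1.67 and 0.990 CPM in null embryos, against 0 and 0.222 CPM in wild type, where 3 counts were read. The ratio of its pooled levels was 17.6 (95% exact binomial interval 5.75 to 87.5, counting error only), and its call was lost without null 1 (adjusted p = 0.11). Without wild type 1 and wild type 2 its fitted change of 3.99 was 2.54 and 8.97. The reads of all Hox genes summed to 37.2 and 36.8 CPM in null embryos, 5.19 and 5.43 CPM in maternal null, 3.31 and 3.09 CPM in paternal null, and 4.10 and 5.69 CPM in wild type. Most of the null sum was hoxb1b.

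Signalling pathways that act on these regions had few members past the test. In the retinoic acid pathway, a known inducer of hoxb1b, 2 of 25 tested rose (8.0%, beside 2.23% of all genes tested) and none fell. DESeq2 called 1 of them, and gave the rxra copy an adjusted p of 0.15. A dhrs3 copy (ENSDARG00000044803), a retinaldehyde reductase, had 48.0 and 48.7 CPM in null embryos, against 4.42 and 13.5 CPM in wild type (2.41 ± 0.57, adjusted p = 0.0017; 1.78 and 3.62 without wild type 1 and wild type 2). A copy of the receptor gene rxra (ENSDARG00000057737) rose by 2.46, with 16.7 and 15.5 CPM in null embryos, against 5.65 and 0.518 CPM in wild type (4.89 and 1.69 without wild type 1 and wild type 2). In the Notch pathway 3 of 33 rose (9.09%) and none fell. Those that rose were Hairy and E(spl) repressors: her4.2 (3.63), her15.2 (2.85) and her2 (2.43), each under 7 CPM in null embryos. DESeq2 called 0 of the 33 (adjusted p from 0.15 to 0.51 for these 3; 9 of the list had an unadjusted p under 0.05 in edgeR), and library totals also called 0 (0.059 to 0.088). The change without wild type 1 was 2.24 for her4.2 and 1.89 for her15.2, and without wild type 2 it was 9.40 for her4.2, 4.41 for her15.2 and 3.08 for her2. In the Hedgehog pathway 2 of 20 rose, a copy of the ligand gene shh (ENSDARG00000038867, 2.88) and a copy of the effector gene gli2 (ENSDARG00000020884, 2.22). DESeq2 called 0 of the 20 (adjusted p = 0.20 and 0.18; 3 had an unadjusted p under 0.05 in edgeR). Without wild type 2 these were 3.78 and 3.03, and without wild type 1 the shh copy stood at 2.20. wnt8b was the 1 of 43 Wnt genes that passed (2.99 ± 0.96, adjusted p = 0.040, with 0.089 and a change of 1.65 without wild type 1, 9.29 without wild type 2 and an adjusted p of 0.28 without null 1). DESeq2 gave wnt8b an adjusted p of 0.73. Of 33 FGF genes edgeR called 0 and DESeq2 0. In edgeR 5 of them had an unadjusted p under 0.05, beside 3332 of all 21167 genes tested. The ligand gene fgf3 came nearest, with 7.98 and 8.39 CPM in null embryos, against 39.2 and 17.7 CPM in wild type (adjusted p = 0.089).

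Ectodermal regulators rose in part. Of 27 neural crest and placode genes tested, 4 rose (14.8%, beside 2.23% of all genes tested) and none fell. The median was 1.07, and 0.59 and 1.90 without wild type 1 and wild type 2. DESeq2 called 2, and gave tfap2a an adjusted p of 0.17 and twist1a 0.42. tfap2a, which specifies crest and epidermis, had 240 and 235 CPM in null embryos, against 44.3 and 100 CPM in wild type (1.70 ± 0.55, adjusted p = 0.042; 2.60 without wild type 2). Its call was lost without null 1 (adjusted p = 0.059). prdm1, a transcription factor of crest and placode progenitors, had 27.9 and 30.4 CPM in null embryos, against 2.31 and 7.25 CPM in wild type (2.59 ± 0.60, adjusted p = 0.0012; 1.94 and 3.82 without wild type 1 and wild type 2). prdm1b rose by 2.14, and twist1a by 2.82 from wild-type values of 0.0398 and 1.85 CPM (1.71 without wild type 1 and 7.38 without wild type 2). Of 36 BMP and ventral ectoderm genes, 3 rose (8.33%) and none fell (median 0.26). DESeq2 called 1 of these, with an adjusted p of 0.23 for the sp8 copy and 0.12 for id2b. tp63, the master regulator of the epidermis, had 17.8 and 17.6 CPM in null embryos, against 3.70 and 4.14 CPM in wild type (2.20 ± 0.61, adjusted p = 0.012), and its wild-type libraries were close to each other. It had 4.99 CPM in maternal null and 2.97 CPM in paternal null. A copy of sp8 (ENSDARG00000056666), a zinc finger factor of the limb bud ectoderm, rose by 1.94 (1.27 without wild type 1 and 3.32 without wild type 2), and id2b, an inhibitor of bHLH factors, had 84 counts in null embryos and 3 in wild type, a pooled ratio of 23.1 (95% interval 7.63 to 114).

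Organizer and mesoderm genes were called at close to the share of all genes tested. Of 33 nodal and mesendoderm genes edgeR called 0 and DESeq2 0, with a median of -0.23. In edgeR 6 of them had an unadjusted p under 0.05, beside 3332 of all 21167 genes tested. sox17, of the endoderm, came nearest, with 47.7 and 45 CPM in null embryos, against 6.41 and 22.1 CPM in wild type (adjusted p = 0.056). Of 34 organizer and axial genes 1 rose, the shh copy, and 1 fell, sebox. This is 2.94% each way, beside 2.23% of all genes tested that rose and 2.74% that fell. sebox, a mix-type homeobox gene of early mesendoderm (chromosome 5 from 66693280 to 66703819), had 8.75 and 7.88 CPM in null embryos, against 216 and 35.1 CPM in wild type. The log2 change was -3.79 ± 0.69 (adjusted p = 9.4e-06), -2.13 without wild type 1 and -4.52 without wild type 2. Scaling by library totals lost its call (adjusted p = 0.07). Both null values lay below both wild-type values, which were far apart, and the crosses stood at 105 CPM in maternal null and 76.9 CPM in paternal null. Of 41 mesoderm genes 1 rose and 1 fell (2.44% each way). tbx6, of the presomitic mesoderm, rose by 3.24 ± 0.73 (adjusted p = 0.00082). It had 5.84 and 4.62 CPM in null embryos, against 0.557 and 0.592 CPM in wild type. ripply3, a T-box corepressor gene, fell by 3.26 at under 2 CPM in every wild-type library, a call lost without null 2 (adjusted p = 0.070) and in DESeq2 (0.16).

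Some germline and egg transcripts fell in null embryos. Of 31 germ plasm and piRNA genes tested, 4 fell (12.9%, beside 2.74% of all genes tested) and none rose. The median was -1.11, beside -0.04 over all genes tested, and 29 of 31 had a fold change below 0. piwil1, the Argonaute protein that binds piRNAs in germ cells, had 13.3 and 11.5 CPM in null embryos, against 64.0 and 54.5 CPM in wild type (-2.22 ± 0.62, adjusted p = 0.013). piwil2, its partner in piRNA amplification, had 6.89 and 7.03 CPM in null embryos, against 37.4 and 33.8 CPM in wild type (-2.33 ± 0.65, adjusted p = 0.012). Both genes differed little between the wild-type libraries, and their crosses were nearer to wild type: piwil1 had 43.6 CPM in maternal null and 58.0 CPM in paternal null, and piwil2 23.3 and 27.4 CPM in maternal and paternal null. The kinase gene stk31 fell by 2.08. The Tudor domain gene tdrd7 had no read in null embryos and 22 in wild type, at least 8.90-fold lower, a call that was lost without either null library (adjusted p = 0.10 without null 1 and 0.060 without null 2). The oocyte organizer buc had 13.7 and 13.2 CPM in null embryos, against 36.5 and 20.4 CPM in wild type, and did not pass (adjusted p = 0.42).

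Of 42 oocyte and egg genes 4 fell (9.52%, beside 2.74% of all genes tested) and none rose (median -0.79). mcm3l, the maternal form of a subunit of the replicative helicase, had 11.2 and 10.6 CPM in null embryos, against 58.3 and 61.3 CPM in wild type (-2.43 ± 0.63, adjusted p = 0.0054). It stood at 24.2 CPM in maternal null and 85.7 CPM in paternal null. wee2, the oocyte kinase that holds back cell division, had 12.8 and 12.1 CPM in null embryos, against 90.6 and 28.8 CPM in wild type (-2.17 ± 0.62, adjusted p = 0.016; -1.27 without wild type 1). The egg claudin cldnd fell by 2.1 and the egg coat gene zp3c by 2.05, and the call of zp3c was lost without null 1 (adjusted p = 0.058). The reads of the egg list summed to 2317 and 2303 CPM in null embryos, 3213 and 3256 CPM in maternal null, 3547 and 3570 CPM in paternal null, and 3469 and 3097 CPM in wild type. The null libraries were the lowest of the shield groups by this sum. In the replication list 2 of 44 fell, mcm3l and an mcm6 copy (ENSDARG00000033231, -2.08), and none rose, while the median was 0.40. In the meiosis list 2 of 24 rose (8.33%, beside 2.23% of all genes tested) and none fell. sycp1, of the synaptonemal complex, had 10.1 and 10.2 CPM in null embryos, against 1.47 and 0.370 CPM in wild type. It rose by 3.46, and by 4.71 without wild type 1, and ankrd31 rose by 2.38. sycp1 stood at 16.8 CPM in maternal null and 1.15 CPM in paternal null.

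Genes of the matrix around cells were called in both directions. Of 50 extracellular matrix genes 5 rose and 4 fell (median 0.18; 0.67 without wild type 1). DESeq2 called 2 higher and 4 lower, beside 0.967% higher and 1.87% lower over all genes it tested. It gave plod2, the mmp15 copy and nid2 an adjusted p of 0.078, 0.075 and 0.092. The genes that rose were p4ha3 (3.85), which hydroxylates collagen, loxl2a (3.12) and plod2 (3.02; 2.32 and 4.11 without wild type 1 and wild type 2), which act in collagen crosslinking, a copy of the membrane protease gene mmp15 (ENSDARG00000051962, 2.07) and nid2 (1.74), of the basement membrane. nid2 had 117 and 121 CPM in null embryos, against 28.1 and 42.9 CPM in wild type. Of the genes that fell, 3 belong to the hyaluronan matrix. hapln4, which links hyaluronan to proteoglycans, had 1.67 and 1.84 CPM in null embryos, against 72.9 and 32.6 CPM in wild type (-4.84 ± 0.75, adjusted p = 5.6e-08). ncan, the proteoglycan neurocan, had 0.195 and 0.189 CPM in null embryos, against 4.90 and 3.48 CPM in wild type (-4.38 ± 0.91, adjusted p = 0.00018). Both genes lie next to each other on chromosome 22, hapln4 from 17803288 to 17806275 and ncan from 17839893 to 17997444. Their crosses split alike: hapln4 had 5.44 CPM in maternal null and 37.5 CPM in paternal null, and ncan 0.285 and 3.75 CPM in maternal and paternal null. hapln1a, on chromosome 5, fell by 4.36 and stood at 0.357 CPM in maternal null and 1.82 CPM in paternal null. The remaining gene that fell, p4ha1a (-1.89), encodes a prolyl hydroxylase like p4ha3, and its call was lost without null 1 (adjusted p = 0.067).

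Of 50 collagen genes 3 rose and 2 fell (beside 2.23% and 2.74% of all genes tested), and DESeq2 called 2 higher and 1 lower, with an adjusted p of 0.32 for col4a6 and 0.12 for the col10a1 copy. The basement membrane genes col4a5 and col4a6, which adjoin each other on chromosome 7, rose by 2.31 and 2.67, and col15a1b rose by 4.15. col4a5 had 19.8 and 20.7 CPM in null embryos, against 2.71 and 5.47 CPM in wild type (3.07 without wild type 2). The fibrillar gene col1a1 and a col10a1 copy (ENSDARG00000101535) fell by 2.96 and 2.87, from wild-type levels under 3 CPM, and without wild type 1 the change was -2.22 for col1a1 and -1.69 for col10a1, whose call was then lost (adjusted p = 0.11), as it was without null 1 (adjusted p = 0.056). Both were higher in maternal null embryos than in any other shield group, at 15.8 and 9.63 CPM. Among markers of differentiated tissue 4 of 30 rose (13.3%), at low levels, and 1 fell (3.33%). The gene that fell, a stmn2 copy (ENSDARG00000033234), had 1.36 and 1.84 CPM in null embryos, against 13.7 and 10.2 CPM in wild type (-2.88 ± 0.74, adjusted p = 0.0047). DESeq2 called 0 higher (8 had an unadjusted p under 0.05 in edgeR) and 1 lower. The cardiac troponin gene tnnt2 had 43 counts in null embryos and none in wild type, at least 11.8-fold higher, and maternal null embryos had 1.35 CPM. The whole list summed to 45.4 and 48.6 CPM in null embryos, against 52.5 and 47.0 CPM in wild type.

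Stress genes rose in a small group of chaperones. Of 43 heat shock and chaperone genes, 5 rose (11.6%, beside 2.23% of all genes tested) and none fell (median 0.27). DESeq2 called 3 of these (adjusted p = 0.073 for hsp70l and 0.057 for hspa2). hsp90aa1, the inducible Hsp90, had 43.5 and 42.0 CPM in null embryos, against 14.5 and 10.4 CPM in wild type (1.83 ± 0.54, adjusted p = 0.020), and stood at 293 CPM in maternal null and 15.3 CPM in paternal null. hsp70.3, hsp70l and hspa2, of the Hsp70 family, rose by 2.43, 2.77 and 3.35 while staying under 5 CPM in null embryos (4.18 for hsp70l and 3.98 for hspa2 without wild type 1). They too were highest in maternal null embryos, at 40.9, 19.5 and 11.2 CPM. A serpinh1 copy (ENSDARG00000075954), the collagen chaperone, had 41.8 and 39.1 CPM in null embryos, against 8 and 8.13 CPM in wild type (2.36 ± 0.57, adjusted p = 0.0022). Near-identical Hsp70 copies may share reads. Of 36 p53 target genes edgeR called 0 and DESeq2 0. In edgeR 5 of them had an unadjusted p under 0.05, beside 3332 of all 21167 genes tested. Of 30 AP-1 and immediate early genes 1 passed (3.33%, beside 2.74% of all genes tested that fell). This was egr1, which had 3 counts in null embryos and 39 in wild type, 15.8-fold lower (95% interval 5.02 to 79.8). Its call was lost without wild type 1 (adjusted p = 0.62, log2 change -1.24) and without null 1 (adjusted p = 0.18), and its fitted change of -3.59 was -4.29 without wild type 2. DESeq2 gave it an adjusted p of 0.41.

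Immune genes moved both ways, with 4 of 44 rising (9.09%, beside 2.23% of all genes tested) and 7 falling (15.9%, beside 2.74%). The median of the list was -0.40. It was 0.20 without wild type 1 and -0.74 without wild type 2, so its sign depended on the wild-type library. DESeq2 called 2 higher and 3 lower, and gave ifi44f4 and mxa an adjusted p of 0.61 and 0.090. The NOD-like receptor genes nlrc9 and nlrc8, neighbours on chromosome 15, rose by 4.86 and 3.82, ifi44f4 by 4.29 and the antiviral GTPase gene mxa by 1.96. Leaving out wild type 1 gave a change of 11.18 for nlrc9, 4.96 for nlrc8, 11.06 for ifi44f4 and 2.60 for mxa, and without wild type 2 it was 4.21 for nlrc9 and 3.61 for ifi44f4. Changes fitted against a lone library without reads, such as 11.18 for nlrc9, depend on the prior count. nlrc9 had 6.42 and 6.74 CPM in null embryos, against 0.398 and 0 CPM in wild type, with 2.78 CPM in maternal null and 3.35 CPM in paternal null. itgam.1, an integrin gene of myeloid cells, had 0.272 and 0.0943 CPM in null embryos, against 14.8 and 6.21 CPM in wild type (-5.68 ± 0.92, adjusted p = 2.3e-07; -5.06 without wild type 1). It stood at 0.285 CPM in maternal null and 9.06 CPM in paternal null. The complement gene c7b fell by 2.85. The antigen presentation genes cd74a and mhc2dab and the chemokine genes cxcl8a and cxcl18b fell from wild-type levels under 4 CPM in which wild type 1 was the higher. All 4 were above wild type in maternal null embryos (4.61, 3.33, 6.70 and 8.41 CPM). cd74a had 3 counts in null embryos and 83 in wild type, 33.6-fold lower (95% interval 11.1 to 166), and its fitted change of -4.65 was -2.8 without wild type 1 and -5.35 without wild type 2. cxcl8a and mhc2dab had none in null embryos, at least 11.7-fold and 5.26-fold lower. The calls of cxcl8a, cxcl18b and mhc2dab were lost in DESeq2 (adjusted p = 0.073, 0.14 and 0.20) and without wild type 1 (adjusted p = 0.26, 0.16 and 0.096; the change of cxcl18b was then -1.83), those of cxcl18b and mhc2dab also without null 1 (0.059 and 0.14) and that of mhc2dab without null 2 (0.085). mxc had no read in null embryos or in wild type 2, so its groups overlapped, and its call was lost without wild type 1 (adjusted p = 1) and without null 1 (0.081).

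Lists of genes for the chromatin machinery that Anp32e works with are short, and at the 4.97% called over all genes few calls fall in lists of their length. Over all 21167 genes tested, 3332 had an unadjusted p under 0.05 in edgeR. Of 41 genes for H2A.Z and its exchange, anp32e was the 1 that passed in edgeR, in DESeq2 and at an unadjusted p under 0.05, and the median of the list was -0.09. Of 23 DNA methylation genes edgeR and DESeq2 called 0 (2 at an unadjusted p under 0.05), with a median of 0.02. zbtb4, which encodes a reader of methylated DNA, came nearest, with 0 and 0.189 CPM in null embryos, against 0.876 and 0.518 CPM in wild type (adjusted p = 0.12). Of 58 genes for histone marks and repression edgeR and DESeq2 called 0 (1 at an unadjusted p under 0.05), with a median of 0.00. The methyltransferase gene ezh1 came nearest, with 4.40 and 5.38 CPM in null embryos, against 1.07 and 1.55 CPM in wild type (adjusted p = 0.078). Of 40 pluripotency factors and early zygotic genes 1 fell, an nr6a1 copy (ENSDARG00000014480, -2.74), a call lost without null 1 (adjusted p = 0.087), without null 2 (0.066) and in DESeq2 (0.22). A p that misses the threshold does not show that these genes did not differ, and the log2 change of ezh1, 1.92, had an SE of 0.68.

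Core cellular genes depended on which wild-type library they were set against. Beside 2.23% of all genes tested that rose and 2.74% that fell, 1.28% of ribosomal protein genes rose. Of nuclear respiratory chain genes 1.03% fell, and of tRNA synthetases 2.86%. Of 78 ribosomal protein genes 1 passed (rps11l, 2.07; 2.69 without wild type 2, and a call lost without null 1, adjusted p = 0.051, and in DESeq2, 0.22), and 77 had a fold change above 0, with a median of 0.42. That median was -0.03 without wild type 1 and 1.14 without wild type 2, and the reads summed to 29950 and 30077 CPM in null embryos, 21678 and 21487 CPM in maternal null, 24317 and 24087 CPM in paternal null, and 15683 and 29296 CPM in wild type. The null libraries were thus near wild type 2 and above wild type 1. The same held for the nuclear genes of the respiratory chain (median 0.11; -0.18 and 0.71 without wild type 1 and wild type 2; ndufaf8 fell, 1 of 97, a call lost without either null library, adjusted p = 0.054 and 0.11, and in DESeq2, 0.25) and for the proteasome (median 0.09; -0.20 and 0.66), of whose 49 genes edgeR and DESeq2 called 0, with 0 at an unadjusted p under 0.05. edgeR and DESeq2 also called 0 of 76 splicing genes (1 at an unadjusted p under 0.05), 0 of 80 translation factors (6), 0 of 13 genes of the mitochondrial chromosome (0) and 0 of 6 ferritin genes (0). Such unadjusted counts stand beside 3332 of all 21167 genes tested in edgeR. Among tRNA synthetases tars3 fell by 3.48, 1 of 35, with 0.570 CPM in maternal null and 6.43 CPM in paternal null.

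**Figure D4:**
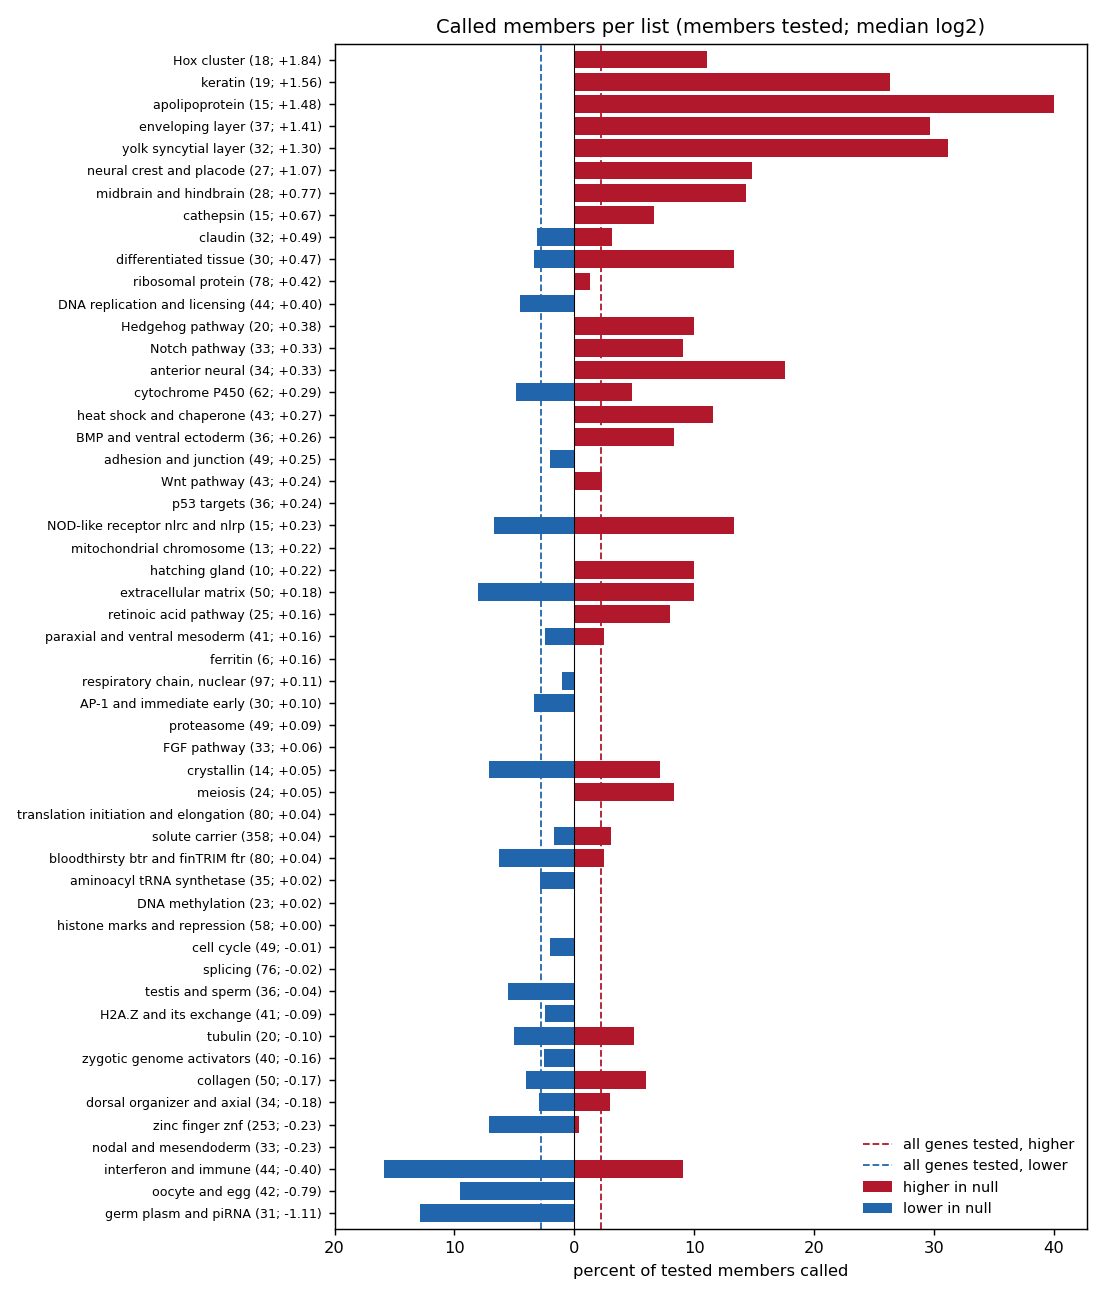
Share of tested members that rose (red, right of 0) or fell (blue, left of 0) in null embryos for each gene list, ordered by its median log2 fold change, with the number tested and the median in brackets. Dashed lines mark the 2.23% that rose and 2.74% that fell among all genes tested. Small lists move in large steps, lists share members, and members were chosen with earlier results of these data known.

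Genes that fell were unevenly spread over the chromosomes. On chromosome 4, 9 of 1318 genes tested rose and 101 fell (7.66%), whereas on all the other chromosomes 463 of 19849 rose and 479 fell (2.41%). The excess lay in the part of chromosome 4 from 25 Mb on, which in zebrafish is rich in zinc finger genes and repeats: 83 of 831 fell (9.99%), 1 rose, and the median was -0.51. Before 25 Mb, 18 of 487 fell (3.70%) and 8 rose. With every library taken as a replicate 48.7% of the genes from 25 Mb on were called, beside 36.2% of all genes tested in that fit. On the other numbered chromosomes the share called in either direction ran from 3.27% on chromosome 18 to 7.44% on chromosome 15.

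The znf genes, which encode zinc finger proteins that bind DNA, accounted for part of this excess. Of 253 tested, 18 fell (7.11%, beside 2.74% of all genes tested) and 1 rose (0.395%, beside 2.23%). DESeq2 called 11 lower. The gene that rose was znf1004 on chromosome 3 (2.88, with 27.8 and 28.0 CPM in null embryos, against 7.12 and 0.887 CPM in wild type). Its change was 4.91 without wild type 1 and 2.14 without wild type 2. On chromosome 4 from 25 Mb on, 14 of 96 fell and none rose (median -0.76), while elsewhere 4 of 157 fell and 1 rose (median -0.07). znf1062 had 0.0389 and 0.0472 CPM in null embryos, which is 2 counts, against 10 and 6.88 CPM in wild type, or 345 counts. Its pooled ratio was 209-fold lower (95% interval 57.5 to 1736), and it stood at 4.33 CPM in maternal null and 4.43 CPM in paternal null. znf1106 had no read in null embryos and 80 in wild type, at least 32.4-fold lower, with 1.21 CPM in maternal null and 1.37 CPM in paternal null. Over the 14 that fell, null embryos held a median of 7.45% of the wild-type level (from 0 to 14.9%), maternal null embryos 55.4% (from 45.9 to 79.5%) and paternal null embryos 47.5% (from 33.6 to 69.4%). Both crosses lay near the middle between null and wild type for these genes. The 14 were picked by their fall from wild type to null in these libraries. Levels between the groups are therefore a description and no independent support, and each cross counts as 1 sample. Copies in this region are alike in sequence, so reads may be shared among them.

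**Figure D5:**
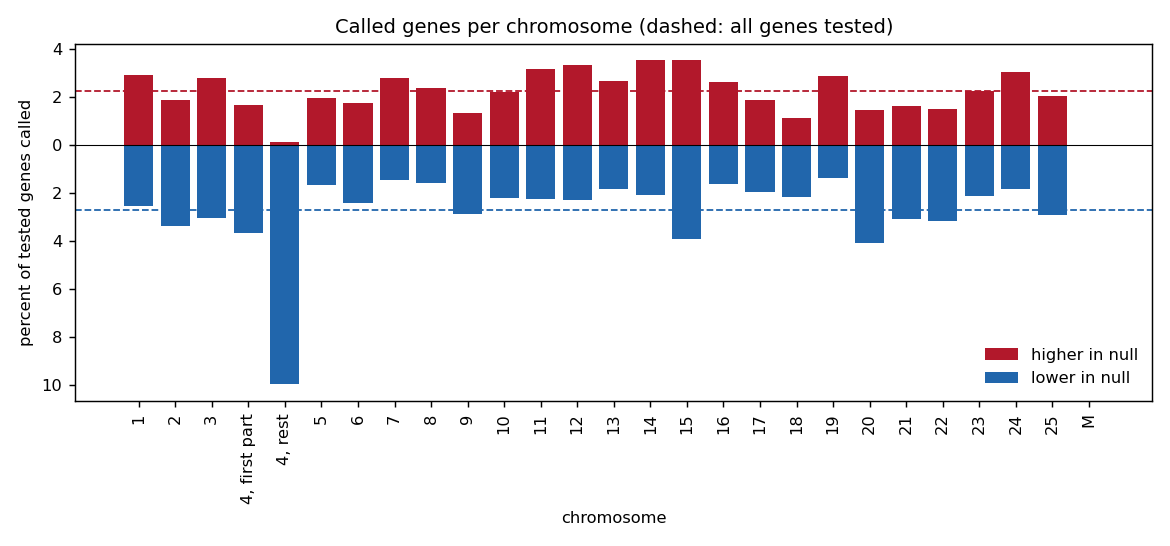
Share of tested genes that rose (red, above 0) or fell (blue, below 0) in null embryos on each chromosome, with chromosome 4 split at 25 Mb into its first part and the rest, and M the mitochondrial chromosome. Dashed lines mark 2.23% and 2.74% over all genes tested; the rest of chromosome 4 reaches 9.99% that fell.

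Other families of multiple copies were counted as well. Of 80 btr and ftr genes, which encode TRIM-type proteins of fish immunity, 2 rose (2.50%, beside 2.23% of all genes tested) and 5 fell (6.25%, beside 2.74%), and DESeq2 called 0 higher (23 of the family had an unadjusted p under 0.05 in edgeR) and 3 lower. btr32 had no read in null embryos and 102 in wild type, at least 41.3-fold lower, ftr60 and ftr61 none in null embryos, at least 12.1-fold and 6.88-fold lower, and ftr90 fell by 2.49 (8.36 and 8.87 CPM in null embryos, against 70.2 and 31.2 CPM in wild type; by 1.92 without wild type 1). btr32 stood at 0.737 CPM in maternal null and 0.554 CPM in paternal null, whereas ftr60 was at its wild-type level in both crosses, 0.666 and 1.06 CPM in maternal and paternal null. The call of ftr61 was lost without either null library (adjusted p = 0.12 without null 1 and 0.076 without null 2). The annotated spans of ftr60 and ftr61 overlap on chromosome 24, so these genes may share reads. Of 62 cytochrome P450 genes 3 rose and 3 fell (4.84% each way), and DESeq2 called 1 higher and 1 lower: cyp2aa9 had 64.4 and 67.1 CPM in null embryos, against 8.28 and 9.39 CPM in wild type (2.91 ± 0.56, adjusted p = 3.2e-05), while cyp2x7 fell by 2.39. cyp2j20 and a cyp8b1 copy (ENSDARG00000097559) had no read in null embryos. cyp2j20 was at least 6.07-fold lower, a call lost without either null library (adjusted p = 0.16 and 0.10). The cyp8b1 copy also had no read in wild type 2, and its call was lost without wild type 1 (adjusted p = 1) and without null 1 (0.084).

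Lists with 1 or 2 changes complete the account. Of 36 testis and sperm genes, the cilium genes cfap70 and cfap65 fell by 3.31 and 2.79 (cfap70 had 0.661 and 0.472 CPM in null embryos, against 7.08 and 4.73 CPM in wild type), and the call of cfap65 was lost without null 2 (adjusted p = 0.076). Of 32 claudins, which seal tight junctions, a cldn5 copy (ENSDARG00000043716) rose by 2.49 (1.89 and 3.50 without wild type 1 and wild type 2; DESeq2 adjusted p = 0.065) and cldnd fell. Of 20 tubulins tuba1a rose, with 55.6 and 56.0 CPM in null embryos, against 5.25 and 22.7 CPM in wild type (1.96 ± 0.56, adjusted p = 0.015; 1.23 and 3.58 without wild type 1 and wild type 2), a call lost in DESeq2 (adjusted p = 0.22). tuba8l3 had no read in null embryos and 23 in wild type, at least 9.30-fold lower. The 1 of 10 hatching gland genes that rose, ctsl.1, is the 1 of 15 cathepsin genes that rose, and its call was lost without either null library (adjusted p = 0.065 and 0.071).

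Of 358 solute carrier genes 11 rose and 6 fell, shares of 3.07% and 1.68% beside 2.23% and 2.74% of all genes tested (DESeq2 called 4 higher and 2 lower). slc16a9 (copy ENSDARG00000104687), of the monocarboxylate family, had 99.2 and 99.8 CPM in null embryos, against 26.9 and 23.1 CPM in wild type (2.03 ± 0.53, adjusted p = 0.0064), with 66.6 CPM in maternal null and 24.1 CPM in paternal null. slc6a16a rose by 2.70, slc47a1, an exporter of organic cations, by 2.55 (3.24 without wild type 2), and the zinc transporter gene slc39a5 by 1.67, a call lost without null 2 (adjusted p = 0.051). slc6a16a had 48.6 and 47.2 CPM in null embryos, against 12.1 and 3.55 CPM in wild type (3.69 without wild type 1), and both crosses were near the null level, at 43.4 CPM in maternal null and 65.9 CPM in paternal null. slc2a3b, a glucose transporter, fell by 2.8, but by 1.18 without wild type 1, where its call was lost (adjusted p = 0.10), and by 3.48 without wild type 2.

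Near anp32e itself, chromosome 19 did not stand out by its count. Of 140 genes whose start lay within 5 Mb of that of anp32e, 4 rose and 2 fell (4.29% called), beside 19 that rose and 8 that fell of 661 on the rest of the chromosome (4.08%) and 4.97% of all genes tested. Those with at least 20 CPM in the higher group were fkbp9 and si:ch211-191i18.2. fkbp9, a prolyl isomerase of the endoplasmic reticulum (chromosome 19 from 43021712 to 43038014), had 42.5 and 45.6 CPM in null embryos, against 3.06 and 8.06 CPM in wild type (2.97 ± 0.59, adjusted p = 5.9e-05; 2.38 and 4.01 without wild type 1 and wild type 2). It had 11.1 CPM in maternal null and 7.54 CPM in paternal null. si:ch211-191i18.2, just below anp32e on the map (from 42693635 to 42721918), rose by 1.75 (40.6 and 39.6 CPM in null embryos, against 10.1 and 13.9 CPM in wild type, adjusted p = 0.042), a call lost in DESeq2 (adjusted p = 0.10).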

How the data were processed

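RNA of zebrafish embryos was counted per Ensembl gene. The deposited counts are raw read counts without normalization; genes under a highest count of 10 had been left out of the table. Novoalign 2.8 and DESeq2 are named in the submitters' processing notes, with no role given; of the counter, the annotation release and the strand setting nothing is stated in the labels or file headers. The table heads its coordinates Zv10. Symbols were matched by identifier for 20669 of 22737 genes (90.9%); 2828 identifiers share one.

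Libraries of a group whose chi-square was under 2 per degree of freedom were summed. Counts were tested with edgeR 4.0.16 (R 4.3.3), robust quasi-likelihood F test, TMM scaling, filterByExpr and Benjamini-Hochberg adjustment over all genes at 0.05, in 1 fit of the shield samples, and checked on simulated data. The SE is the log2 fold change over the square root of F. A group without any count was given a floor of 3 counts in total; with 1 to 3 counts the ratio has a 95% exact binomial interval. Floors and intervals cover counting error only. Genes were named by rule: the anp32 genes, the 12 largest folds each way at 20 CPM or more, the 6 largest level differences each way, called list members, and called neighbours of anp32e. Members and lists were chosen with earlier results of these data known, and the ferritin and Hox lists were corrected on gene names after the data were seen. Promoter sequences were not analysed here. Alternatives were other scalings, filters and sample sets, DESeq2 1.42.0 and leaving out each library. The deviations of like-numbered null and wild-type libraries had a correlation of 0.01 over 19942 genes. Because the null pair differs by little more than counting noise, this value cannot show whether replicate numbers pair the libraries.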

Additional observations from a re-analysis of the deposited data

How the results depend on the processing

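The 1052 calls (472 higher, 580 lower) depended on how libraries were counted. With every library as a replicate there were 6938 (3222 higher, 3716 lower), and with a replicate block added 6155 (2859 higher, 3296 lower). Scaling by library totals gave 593 (255 higher, 338 lower) and DESeq2 508 (173 higher, 335 lower). In the part of chromosome 4 from 25 Mb on the share called was 48.7% with every library, against 10.1%. Leaving out 1 library gave from 924 to 7733 calls (440 to 3607 higher, 484 to 4126 lower): without a wild-type library the test takes all groups, the lone library is assumed to vary like the others, and the spread comes from the pair labelled sperm. Without wild type 1 there were 4438, without wild type 2 7733. DESeq2 size factors, no filter, only null and wild type, or all groups kept the counts within 1.5 times.

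In the fits without wild type 1 or wild type 2, 10.5% or 15.9% of all genes were higher and 9.05% or 18.2% lower. Of the enveloping layer list 30 or 23 were then higher and 0 or 4 lower, of the yolk layer list 19 or 19 higher and 0 or 1 lower. Of the germ plasm list 18 or 24 were lower and 0 or 0 higher, and of the egg list 13 or 21 lower and 1 or 0 higher.

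No named gene that passed was reversed under these settings. Of 188 that passed, 69 lost their call with library totals, 81 of 182 with DESeq2 (among them hoxb1b, zic1, pax6, otx1, gbx1 and tfap2a), 31 with all groups and 4 of 187 with the replicate block (wnt8b, egr1, mxc and the cyp8b1 copy); the cause was not tested. Without wild type 1 or wild type 2, 60 and 48 of 162 moved by more than 1.5-fold.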
